A study of Mus musculus with 9 samples.

Results

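The 5 libraries described here are the Arid1a f/f controls of a 9-library RNA-seq series of mouse heart ventricles, and they were taken by their label alone, with no measured value involved in the choice. Each was made from ventricles collected at postnatal day 7 (P7) from mice of an inbred C57B/6 J background in which both copies of Arid1a carry loxP sites. The label names no Cre for these samples, so Arid1a, whose protein lets the SWI/SNF nucleosome remodeler bind DNA, was intact, and the controls do not carry the aMHC-Cre transgene that the remaining 4 libraries of the series do. The study set the controls against hearts in which that Cre deletes Arid1a in cardiomyocytes, a comparison that is not made here. The values below describe the normal day-7 ventricle: which transcripts it held, which member of each contractile, channel and metabolic gene family was in use, which cell types gave RNA, and how far the 5 libraries differed.

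In the first weeks after birth the mouse ventricle changes from a dividing fetal tissue, which lives largely on glucose and lactate, into a contracting organ fed mainly by fatty acids. Cardiomyocytes exchange fetal for adult isoforms of myosin, troponin, channel and mitochondrial proteins during this time, and the ratio of the isoform pairs is the usual readout of how far this has gone. Cardiomyocytes fill most of the volume of the ventricle, but fibroblasts, endothelial cells, pericytes, macrophages and blood all give RNA to a whole-tissue sample.

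The libraries held 31011055 to 36616381 counts assigned to genes, and 19418 to 19819 genes had at least 1 count. Levels are given as CPM, a gene's count scaled to a library of 1000000 counts after TMM normalization over the 5 libraries, and a longer transcript yields more reads, so rankings in CPM order genes by their reads and the shares and ratios between genes are of CPM per kb of exon. The study describes its n as biological replicates, while the labels do not tie the libraries to animals, and the SDs given here measure the spread between libraries, which includes technical spread. Arid1a itself was read at 140, 126, 131, 144 and 146 CPM in controls 1 to 5. It was chosen for display as the floxed gene, and its values showed no library without it. Xist, the noncoding RNA of the inactive X chromosome, was at 733 and 886 CPM in controls 2 and 3 and under 1 CPM in the others, where the Y-linked gene Eif2s3y was at 107 to 135 CPM, so both sexes were present.

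The libraries fell into 2 sets, and this touches many values below. Controls 1 and 2 lay on the positive side of the first principal component, which held 56.2% of the variance, and controls 3 to 5 on the negative side. The median absolute difference between 2 libraries was 0.107 to 0.108 on the log2 CPM scale within controls 3 to 5 and 0.121 between controls 1 and 2, against 0.156 to 0.214 across the sets. Of 14126 genes kept by a filter on low counts, 6766 (47.9%) had ranges that did not overlap between the sets, 3452 higher (24.4%) and 3314 lower (23.5%) in controls 1 and 2. The difference followed base composition. Across 14015 genes with a known sequence, which are not independent replicates, its Spearman correlation with exon GC content was 0.60 as a description, and the median difference went from -0.17 in the fifth of genes with the lowest GC to 0.23 in the fifth with the highest. A weaker GC trend was also present inside a set. For control 1 minus control 2 the correlation was 0.25, and the median difference went from -0.07 to 0.08. No label gives a sequencing batch, and the part of this split in any result below was not tested except where values with the GC and length trends taken off are given. Each set held libraries of both sexes.

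Reads from mitochondrially encoded genes and from contractile genes led the ranking. The gene with the most reads was mt-Co1, which encodes subunit 1 of cytochrome c oxidase on the mitochondrial chromosome, at 40785 ± 2870 CPM (SD, n = 5). It alone took 4.08% of all counts. mt-Cytb, the cytochrome b of complex III, followed at 27734 ± 2011 CPM and mt-Nd1, a complex I subunit, at 20745 ± 1341 CPM. The first nuclear gene by reads was Myh6 (chromosome 14, 54941921 to 54966927, minus strand), the alpha myosin heavy chain of the adult mouse heart, in the fourth place. Its CPM was 21178, 20197, 15607, 15726 and 16768 in controls 1 to 5, so controls 1 and 2 lay above controls 3 to 5 with a gap larger than the range within either set. Actc1 (chromosome 2, 114047282 to 114053548, minus strand), the cardiac alpha-actin, was at 12482, 10077, 11856, 10798 and 12056 CPM, and there the lowest library was control 2. Myl2, the ventricular regulatory light chain, was at 9730, 10309, 10417, 9916 and 8633 CPM with no split between the sets. The 20 genes with the most reads had 14 nuclear members. Besides those named, these were Atp2a2 at 8713 CPM and Pln at 5767 CPM, the calcium pump of the sarcoplasmic reticulum (SR) and its inhibitor, and the thin filament genes Tpm1 and Tnnt2 at 6301 and 5894 CPM. They also included the oxygen store Mb at 5613 CPM, the catalytic ATP synthase subunits Atp5b and Atp5a1 at 5103 and 4063 CPM, Ttn at 4064 CPM, Mybpc3 at 3929 CPM, Myl3 at 3637 CPM and Col3a1 at 3133 CPM. Col3a1, a fibrillar collagen of fibroblasts, was the only one of the 14 that is not a muscle or mitochondrial gene.

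**Figure D1:**
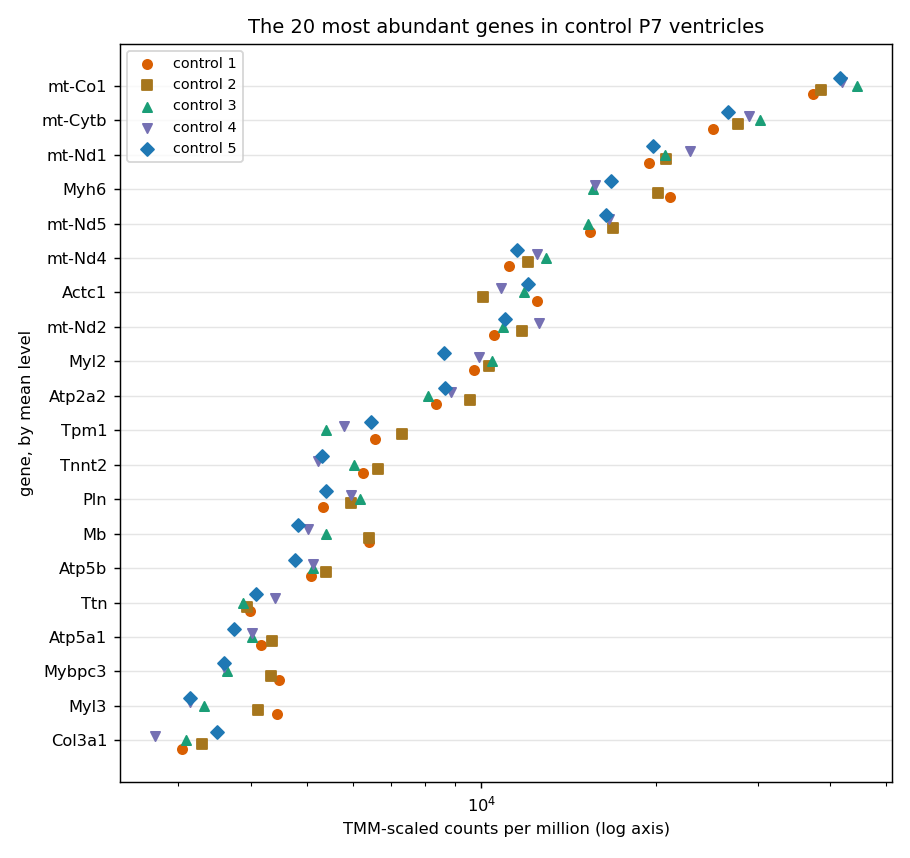
The 20 genes with the most reads, ordered by mean level from top to bottom, with TMM-scaled CPM on a log axis and 1 symbol for each of the 5 control libraries. mt-Co1 lies at 37313 to 44549 CPM and Col3a1 at 2735 to 3497 CPM, and Myh6, Mb, Mybpc3 and Myl3 are higher in controls 1 and 2 than in controls 3 to 5.

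The order changed when length was taken into account, and 15 of the 20 stayed among the 20 highest. Per kb of exon, Actc1 stood at 7079 CPM per kb, Myl2 at 5026, Mb at 3762 and Myh6 at 2661, the last in the tenth place. Titin showed the largest shift among the 20. Ttn, the spring of the sarcomere, has 116825 bases of annotated exon, and its 4064 CPM came to 34.8 CPM per kb, which put it at rank 1080. Membership was stable between libraries, since 19 genes were among the 20 highest of every library and 21 were so in any.

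The mitochondrial chromosome was read unevenly, and identical copies elsewhere in the genome bear on this. Its genes together took 12.2%, 12.9%, 13.9%, 13.9% and 13.2% of counts in controls 1 to 5. Of the 13 protein-coding genes, 6 had no more than 3 counts in any library, namely mt-Co2, mt-Co3, mt-Atp6, mt-Atp8, mt-Nd3 and mt-Nd4l. For 5 of these, between 97.8% and 99.9% of the 75-base stretches of their transcript also occur in transcripts of another annotated gene, such as Gm28437 for mt-Co3 and Gm28661 for mt-Co2. For mt-Atp8 no stretch was shared, and 21.1% of its bases overlap the exon of a neighbour on the same strand. mt-Nd6, the only protein gene transcribed from the light strand, was at 48.4 ± 5.68 CPM. The 22 mitochondrial tRNAs included 13 with no more than 3 counts in any library, and the rRNAs mt-Rnr2 and mt-Rnr1 were at 2319 and 1078 CPM in poly(A)-selected RNA. A low count of the 5 genes with shared stretches therefore gives no level, and 39.8% of the stretches of mt-Co1 and 61.5% of those of mt-Nd4 were shared as well.

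Counts were concentrated in few genes. The 10 highest genes of each library held 17.7 ± 0.460% of its counts (SD, n = 5), the 100 highest 32.5% and the 1000 highest 58.8%, and 523 to 569 genes made up 50% of the counts. A level of at least 1 CPM was reached by 13167 ± 54.8 genes, of at least 100 CPM by 1791 and of at least 1000 CPM by 67 to 77. By class, the 94 sarcomere genes of the lists used below took 8.80 ± 0.543% of counts, the 86 nuclear oxidative phosphorylation genes 4.02 ± 0.216% and the 82 cytosolic ribosomal protein genes 1.33 ± 0.0543%. The sarcomere share was 9.56% and 9.17% in controls 1 and 2 and 8.27% to 8.53% in controls 3 to 5. Most of the nuclear respiratory chain genes that did not overlap between the sets were higher in controls 1 and 2. Of 84 nuclear oxidative phosphorylation genes kept by the filter, 45 had ranges that did not overlap (53.6%, against 47.9% of all genes) and all 45 were higher in controls 1 and 2, whereas 24.4% of all genes were. With the GC and length trends taken off each library, an alternative chosen after seeing the data, 52 did not overlap (36.1% of all genes then), 47 of them higher, against 18.4% of all genes, and 5 lower in controls 1 and 2. Of 13 mitochondrially encoded genes kept, 3 did not overlap as scaled (23.1%), 2 of them higher and 1 lower in controls 1 and 2.

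To describe isoform use, 355 genes were placed in 74 families, 17 of the sarcomere, 23 of channels and transporters and 34 of metabolism, and each member was given as its share of the family sum of CPM per kb. One member held at least 90% of its family in 21 families and at least 50% in 63. The leading member lay above the next in every library in 69 of the 74. The 90% level was reached in 8 of 17 sarcomere families, 3 of 23 channel families and 10 of 34 metabolic ones, and the 50% level in 12, 18 and 33 of them. In all, 118 members held under 1% of their family, 8 of them with no count in any library.

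**Figure D2:**
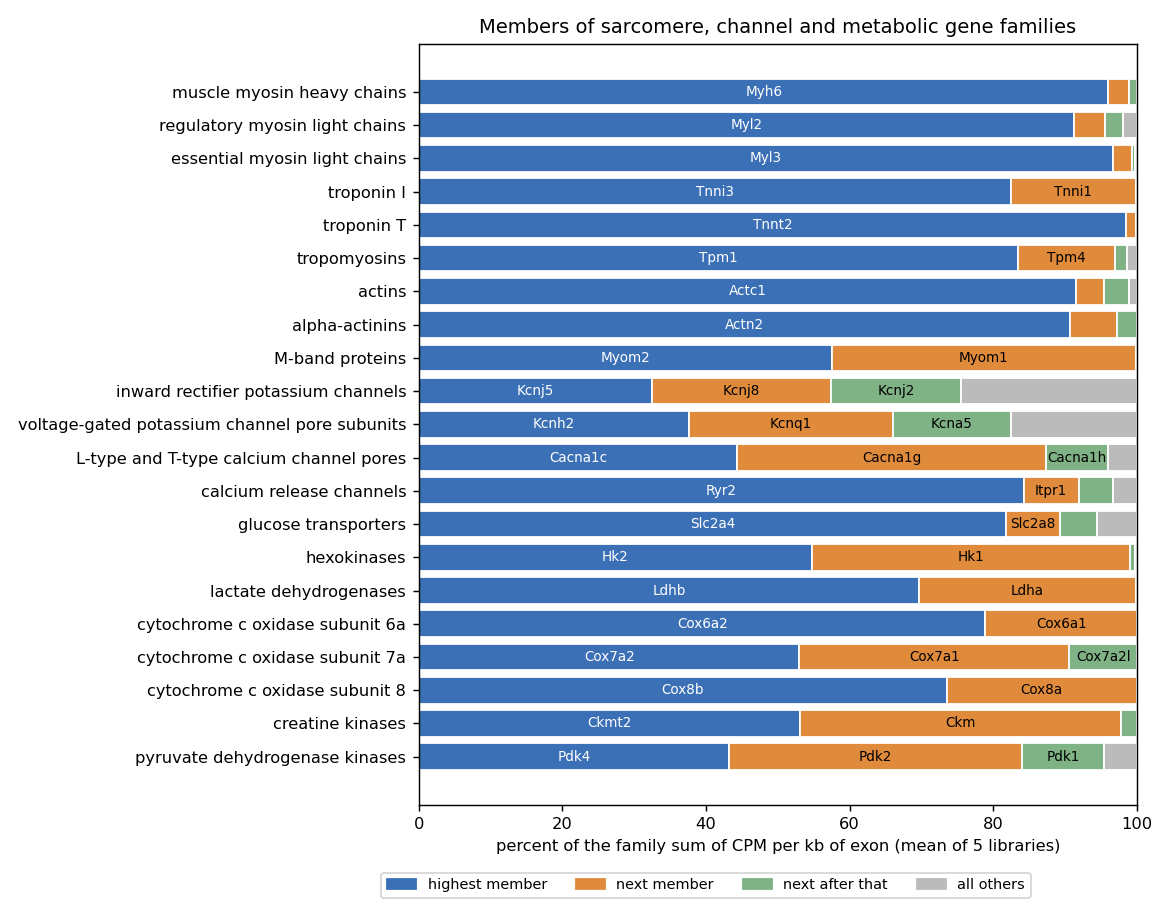
Share of the family sum of CPM per kb of exon, in percent, held by the members of 21 families, as the mean of the 5 control libraries. Each bar gives the highest member, the next, the one after that and all others, and single members fill nearly the whole bar in several contractile families (Myh6 96.0%, Tnnt2 98.5%) but not in the potassium channels (Kcnj5 32.5%, Kcnh2 37.7%).

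In the thick filament the adult ventricular set was in place. Myh6 held 96.0 ± 1.49% of the muscle myosin heavy chains per kb (SD, n = 5), Myh7b 1.13% and Myh7, the beta heavy chain of the fetal ventricle, 2.83 ± 1.56%. Myh7 (chromosome 14, 54970684 to 54994626, minus strand), the direct neighbour of Myh6, was at 114, 1023, 476, 948 and 720 CPM, so control 1 had the lowest level by far. Of its 75-base stretches 10.6% also occur in other transcripts, and of those of Myh6 13.7%. Myl2 held 91.3% of the regulatory light chains, with the smooth muscle chain Myl9 at 4.35%, the non-muscle chain Myl12a at 2.49% and the atrial chain Myl7 at 1.38%. Myl3, the ventricular essential light chain, held 96.7 ± 0.372% of its family and the smooth muscle and non-muscle chain Myl6 2.59%. Mybpc3, the cardiac myosin-binding protein C, made up 98.8% of the myosin-binding proteins, and the slow and fast skeletal forms stayed under 1%. The M-band protein Myom2 was ahead of Myom1, at 57.5 ± 2.43% against 42.4 ± 2.43%, in every library.

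The thin filament kept one fetal component. Tnni3, the cardiac troponin I, was at 2271, 2259, 1950, 1790 and 1763 CPM. Tnni1, the slow skeletal troponin I that the fetal heart uses, was at 875, 799, 771, 586 and 690 CPM. Per kb Tnni3 was 4.41 to 5.33 times Tnni1, so the fetal form still made up 17.5 ± 1.15% of troponin I (SD, n = 5) on day 7. The other subunits had no such remainder. Tnnt2, cardiac troponin T, held 98.5% and Tnnt1, the slow skeletal form, 1.40%, while Tnnc1, the troponin C of slow and cardiac muscle, held 99.99%. Tpm1 led the tropomyosins at 83.5 ± 2.59%, followed by the cytoskeletal Tpm4 at 13.5% and by Tpm2 and Tpm3 at 1.69% and 1.35%. Actc1 held 91.5 ± 1.37% of the actins, with the smooth muscle actin Acta2 at 3.87% and the cytoplasmic Actb at 3.58%. In control 2, where Acta2 was at 873 CPM against 522 to 625 CPM in the others, the Actc1 share was 89.1%.

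Among the giant and Z-disc proteins several members shared the family. Per kb, Nrap, which anchors actin to the membrane at the ends of growing myofibrils, held 36.9% of the giant protein family, against 17.7% for Ttn, 15.5% for Nebl and 8.34% and 8.20% for Obsl1 and Speg. The order thus differed from that in CPM, where Ttn was ahead of Nebl (465 CPM) and Nrap (402 CPM). In the Z-disc list Ankrd1 held 22.8%, Csrp3 19.8%, Ldb3 13.8%, Tcap 10.8% and Myoz2 10.5%. With the longest coding transcript as the length, Csrp3 led at 33.8% and Ankrd1 held 18.6%. Ankrd1 and Csrp3 are stretch-responsive regulators, Ldb3, Tcap and Myoz2 structural partners of alpha-actinin and titin. Synpo2l, Ankrd23, Csrp1, Xirp1 and Csrp2 held 2.60% to 6.02% each, where Ankrd23 shares 78.2% of its exon bases with another gene on the same strand and is uncertain. Actn2, the muscle alpha-actinin, held 90.7% of its family, with the non-muscle forms Actn4 at 6.53% and Actn1 at 2.80%. Of the pointed-end actin regulators, Lmod2 held 42.9%, Tmod1 36.3%, Lmod3 15.8%, Tmod3 3.38% and Tmod4 1.02%. Tmod1 was ahead, at 39.0% against 36.9% for Lmod2, with the longest coding transcript as the length. Families with members from other cells of the tissue were mixed too, with Flna at 61.1% and Flnc at 28.6% of the filamins. Des, the muscle intermediate filament, was at 47.5% against Vim, that of mesenchymal cells, at 35.7%. This order turned around, to 37.7% for Des and 49.4% for Vim, with the longest coding transcript as the length. Nes and the lamins Lmnb1, Lmna and Lmnb2 held 1.07% to 6.31% of that list. Of the non-muscle and smooth muscle heavy chains, Myh10 held 39.2%, Myh9 37.1%, Myh11 16.4% and Myh14 7.33%, and the order of Myh10 and Myh9 was not the same in every library (Myh10 ahead in 3 of 5).

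The inward rectifier and voltage-gated potassium channel families were spread over several genes. Among the inward rectifiers, Kcnj5, a subunit of the acetylcholine-gated channel, held 32.5 ± 2.63% per kb (SD, n = 5). Kcnj8, the pore of the ATP-sensitive channel of vascular cells, held 25.0%, and Kcnj2, the main pore of the resting current of the ventricle, 18.0%. Kcnj11, the ATP-sensitive pore of cardiomyocytes, held 9.62%, and Kcnj12 and Kcnj3 6.99% and 6.96%. Kcnj12, which pairs with Kcnj2, was lower than Kcnj2 by a factor of 1.79 to 3.16 per kb in every library, and Kcnj3, the partner of Kcnj5, by 3.88 to 5.80 against Kcnj5. The sulfonylurea receptors, the regulatory subunits of the ATP-sensitive channels, divided into Abcc9 at 87.9% and Abcc8 at 12.1%. Among the voltage-gated pores, Kcnh2 and Kcnq1, the rapid and slow delayed rectifiers, held 37.7% and 28.4%, and Kcna5, of the ultrarapid current, 16.4%. Kcnd2, the pore of the fast transient outward current, held 5.35%, at 12.5 to 18.4 CPM, and Kcna4 and Kcna7 2.82% and 1.22%. Kcnd2 exceeded Kcnd3 in every library, by 5.45 to 11.4 times per kb. Kcne1, the partner of Kcnq1, held 64.9% of the accessory subunits, Kcnip2, the partner of Kcnd2, 31.3% and Kcne4 1.81%. Kcnk3 held 85.5% of the two-pore channels, with Kcnk6 at 7.74% and Kcnk2 at 5.20%.

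Pacemaker channels and gap junctions each had a single leading gene. Hcn2, the ventricular pacemaker channel, held 89.9% and Hcn4, that of the sinus node, 8.69%, at 15.3 to 25.7 and 1.87 to 5.06 CPM, with Hcn3 at 1.01%. The gap junction family was led by Gja1, the connexin of the working myocardium, at 74.6 ± 0.829%, with Gjc1 at 12.3%, the vascular Gja4 at 7.27%, Gja5 of vessels and the conduction system at 2.76% and Gja3 at 2.46%.

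Calcium entry genes included a second pore at the level of the first per kb of exon. Cacna1c, the L-type channel of the working cardiomyocyte, held 44.4 ± 2.57% of the pore family per kb (SD, n = 5). Cacna1g, a T-type channel that the fetal ventricle uses, held 42.9 ± 3.96%. The order of the pair was Cacna1c above Cacna1g in 3 of 5 libraries, so their levels per kb did not differ beyond the spread. This rests on exon unions of 21191 bases for Cacna1c and 10137 for Cacna1g, and in reads Cacna1c was ahead. The other T-type gene, Cacna1h, held 8.74%, and Cacna1d, the L-type channel of the sinus node, 3.29%, lower than Cacna1c by 13 to 14.3 times in every library. Cacnb2 held 48.4% of the beta subunits, Cacnb3 34.8%, Cacnb1 13.8% and Cacnb4 2.99%. Cacna2d1 held 95.8% of the alpha2-delta subunits and Cacna2d2 3.81%. The gamma subunits were low, Cacng7 at 6.34 CPM holding 70.7%, Cacng6 22.6%, Cacng4 5.62% and Cacng1, at under 0.1 CPM, 1.04%.

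Calcium storage and removal genes were led mostly by the cardiac forms. Atp2a2 was at 8364, 9573, 8103, 8881 and 8644 CPM and made up 99.8 ± 0.0225% of the SR calcium pumps. Pln was at 5337, 5965, 6179, 5959 and 5396 CPM and held 99.8% of the pump regulators, although 64.7% of its exon bases face an exon on the other strand. Neither gene separated the library sets. Ryr2, the release channel, held 84.3 ± 1.25% of its family, with the inositol trisphosphate receptors Itpr1, Itpr2 and Itpr3 at 7.61%, 4.77% and 3.21%. Casq2, the cardiac calsequestrin, held 50.5% of the SR calcium-binding list, Hrc 16.7%, Calr, a chaperone more abundant in the fetal heart, 16.3%, Jph2 9.93%, Trdn 2.35%, Asph 2.30% and Casq1 1.55%. Slc8a1, the sodium-calcium exchanger, held 69.6 ± 6.94% at 124 to 195 CPM, with the mitochondrial Slc8b1 at 25.4%, Slc8a2 at 3.74% and Slc8a3 at 1.27%. The plasma membrane pumps Atp2b1 and Atp2b4 were at 50.4% and 48.9%, with Atp2b1 ahead in 2 of 5 libraries. Of the beta subunits of the sodium pump, Atp1b1 held 69.6%, Atp1b3 21.7% and Atp1b2 8.69%. The pump's regulator Fxyd1, phospholemman, held 81.6% of the FXYD list, with Fxyd6 at 12%, Fxyd5 at 3.85% and Fxyd7 at 2.41%. Autonomic receptors were led by the muscarinic Chrm2 at 38.5 ± 2.32%, the adrenergic Adra1b at 32.4% and Adrb1 at 19.6%, with Adra1d at 2.96%.

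For glucose use, muscle isoforms were ahead at most steps. Slc2a4, the insulin-regulated glucose transporter, held 81.8 ± 1.12% of its family (SD, n = 5) and exceeded the fetal transporter Slc2a1, at 5.21%, by 13.8 to 19.6 times per kb. Slc2a8, Slc2a10 and Slc2a12 held 7.42%, 2.54% and 2.22%. Of the hexokinases, Hk2, the muscle form, and Hk1, the constitutive form, were close, at 54.7% and 44.4%. Hk2 was at 200, 209, 163, 149 and 143 CPM and Hk1 at 204, 202, 186, 197 and 199 CPM, so per kb Hk2 was ahead by 1.03 to 1.48 times. The lower end of that range came from controls 4 and 5, and the order turned around when the longest coding transcript was used as the length. Pfkm held 88.6% of the phosphofructokinases, with Pfkl at 7.54% and Pfkp at 3.85%. Aldoa held 99.9%, Pgam2 98.7%, Eno3 97.3 ± 0.564% and Pkm 99.999% of their families, Pgam1 and Eno1 1.34% and 2.60%. Pgam1 and Eno1 share 34.9% and 23.0% of their 75-base stretches with other transcripts. Ldhb, the lactate dehydrogenase of oxidative muscle, held 69.7 ± 1.43% and Ldha, that of glycolytic tissue, 30.2%. Slc16a1, the lactate transporter, held 97.4%, with Slc16a3 at 1.37% and Slc16a7 at 1.19%.

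Pdk4 and Ucp3 were among the 47.9% of all genes whose ranges did not overlap between the library sets. Pdk4 (chromosome 6, 5483351 to 5496309, minus strand), a kinase that shuts off pyruvate dehydrogenase during fasting, was at 199, 181, 550, 393 and 340 CPM. Pdk2 (chromosome 11, 95026258 to 95041354, minus strand), the constitutive kinase, was at 284, 308, 253, 230 and 241 CPM. The Pdk4 to Pdk2 ratio per kb was therefore 0.631 and 0.529 in controls 1 and 2 and 1.96, 1.54 and 1.27 in controls 3 to 5, and it was the single pair among 30 whose order was not the same in every library. Pdk1 and Pdk3 held 11.4% and 4.58% of the family. Ucp3, an uncoupling protein that also responds to fasting, was at 47.6, 44.8, 85.6, 66.9 and 59.7 CPM, so both genes were lower in controls 1 and 2 than in any of controls 3 to 5. The differences between the set means, on the log2 scale, were -1.14 for Pdk4 and -0.59 for Ucp3 as scaled, and -1.03 and -0.64 with the GC and length trends taken off. The labels give no feeding state or time of collection.

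Fatty acid genes were abundant. Per kb, Fabp3, the heart fatty acid binding protein, stood at 1873 CPM per kb and held 91.8% of its family, with the adipocyte and endothelial form Fabp4 at 7.06% and Fabp5 at 1.02%. These shares rest on an exon union of 4489 bases for Fabp4, and with the longest coding transcript as the length Fabp3 held 70.2% and Fabp4 26.9%. Cd36, the fatty acid translocase, held 61.1% of the uptake list and Lpl, lipoprotein lipase, 29.9%, an order that turned around with that length, with Gpihbp1, Slc27a1 and Slc27a4 at 5.24%, 2.46% and 1.22%. Acsl1, which activates fatty acids for oxidation, held 79.8%, with Acsl3, Acsl5 and Acsl4 at 7.60%, 6.81% and 5.69%. Of the mitochondrial import enzymes, Cpt2 stood ahead of Cpt1a, the liver and fetal form, which was at 103 to 148 CPM. Cpt1b, the adult muscle form, was read at 13.1 to 16.4 CPM. Of its exon bases, 81.4% overlap another gene on the same strand, and Chkb, the gene upstream of it and named here for that reason, was at 78.6 CPM with 50.7% of its bases overlapped, so the counts of Cpt1b give neither a level nor an order against Cpt1a, and no shares are given for this family. Acadl, the long-chain acyl-CoA dehydrogenase, held 53.8% of its family, Acadvl 26%, Acadm 15.3% and Acads 4.89%. Acacb, the acetyl-CoA carboxylase whose product holds back mitochondrial import, held 97.6% against 2.38% for Acaca, the lipogenic form.

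In the mitochondrion the muscle forms of cytochrome c oxidase held different shares of their families. Cox6a2, the muscle form of subunit 6a, was at 501, 468, 332, 292 and 308 CPM and held 78.9 ± 2.70% (SD, n = 5) against 21.1% for Cox6a1. Cox8b, the muscle form of subunit 8, was at 253, 224, 169, 145 and 161 CPM and held 73.5 ± 3.67% against 26.5% for Cox8a. For subunit 7a the order was the other way round, with the liver form Cox7a2 at 53.0%, the muscle form Cox7a1 at 37.6% and Cox7a2l at 9.39%. Cox6a2 and Cox8b were higher in controls 1 and 2, as were their shares. Cox4i1 held 98.5% against 1.54% for Cox4i2, and Cox6b1 99.7%. Slc25a4, the muscle adenine nucleotide carrier, held 83.9% and Slc25a5 16.1%. Of the creatine kinases, the mitochondrial Ckmt2 held 53.0 ± 4.89% and the cytosolic muscle form Ckm 44.8 ± 4.67%, with Ckmt2 ahead in 4 of 5 libraries, and the fetal and brain form Ckb 2.19%. Mb held 99.2% of the oxygen store list at 6401, 6406, 5392, 5030 and 4836 CPM, another gene higher in controls 1 and 2. Idh2 held 55.6% of the isocitrate dehydrogenases, Idh3b, Idh3g and Idh3a 12.1% to 15.3% and Idh1 2.17%, and the cytosolic Mdh1 held 70.3% against 29.7% for the mitochondrial Mdh2. Oxct1, which lets the heart burn ketone bodies, held 54.2 ± 8.39% of its list and Hmgcs1, of sterol synthesis, 12.1%.

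The regulators of this metabolism were expressed at lower levels. Ppargc1a held 67.7% of the PGC-1 coactivators, at 134 to 164 CPM, with Pprc1 at 17.8% and Ppargc1b at 14.5%. Ppara, the receptor that activates fat oxidation genes, held 51.2 ± 4.80% of the PPARs, Ppard 26.4% and Pparg 22.4%. With the longest coding transcript as the length, Ppard was ahead at 40.5% against 38.6% for Ppara. Ppara was at 14.3 CPM in control 3 and at 21.1 to 24.6 CPM in the others. Esrra held 61.6 ± 7.13% of the estrogen-related receptors, Esrrg 27.9% and Esrrb 10.5%. Among subunit transcripts of the energy sensor AMPK, Prkaa2 led at 75.8 ± 1.48% against 24.2% for Prkaa1. Prkab1 held 60.3% against 39.7% for the muscle form Prkab2, and Prkag1 69.0%, with Prkag2 at 28.2% and Prkag3 at 2.79%. Ucp2 held 63.3% of the uncoupling proteins and Ucp3 36.5%.

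The 30 pairs, ordered by ratio, show which of these balances were tight. The first gene of the pair, in most cases the adult or muscle form, was higher per kb in all 5 libraries in 23 pairs, the second in 6, among them Cpt1b over Cpt1a, whose order is uncertain, and neither in 1. In 19 pairs the SD of the log2 ratio was under 0.3. Cacna1c over Cacna1d varied least, at 3.76 ± 0.05 on the log2 scale (SD, n = 5), Ckm over Ckb was at 4.35 ± 0.09 and Ldhb over Ldha at 1.21 ± 0.10. Of the 30, only Myh6 over Myh7, at 5.45 ± 1.41, had an SD above 1. Myh6 was 238 times Myh7 per kb in control 1 and 25.3, 42.0, 21.2 and 29.8 times in controls 2 to 5, so a single library made the spread of that pair. Pairs of a ventricular and an atrial gene moved together, as Myl2 over Myl7 was lowest in control 5, at 40.3 times, and highest in control 3, at 111 times, Myl3 over Myl4 was 120 times in control 5 and 272 times in control 3, and Pln over Sln 243 times and 954 times.

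**Figure D3:**
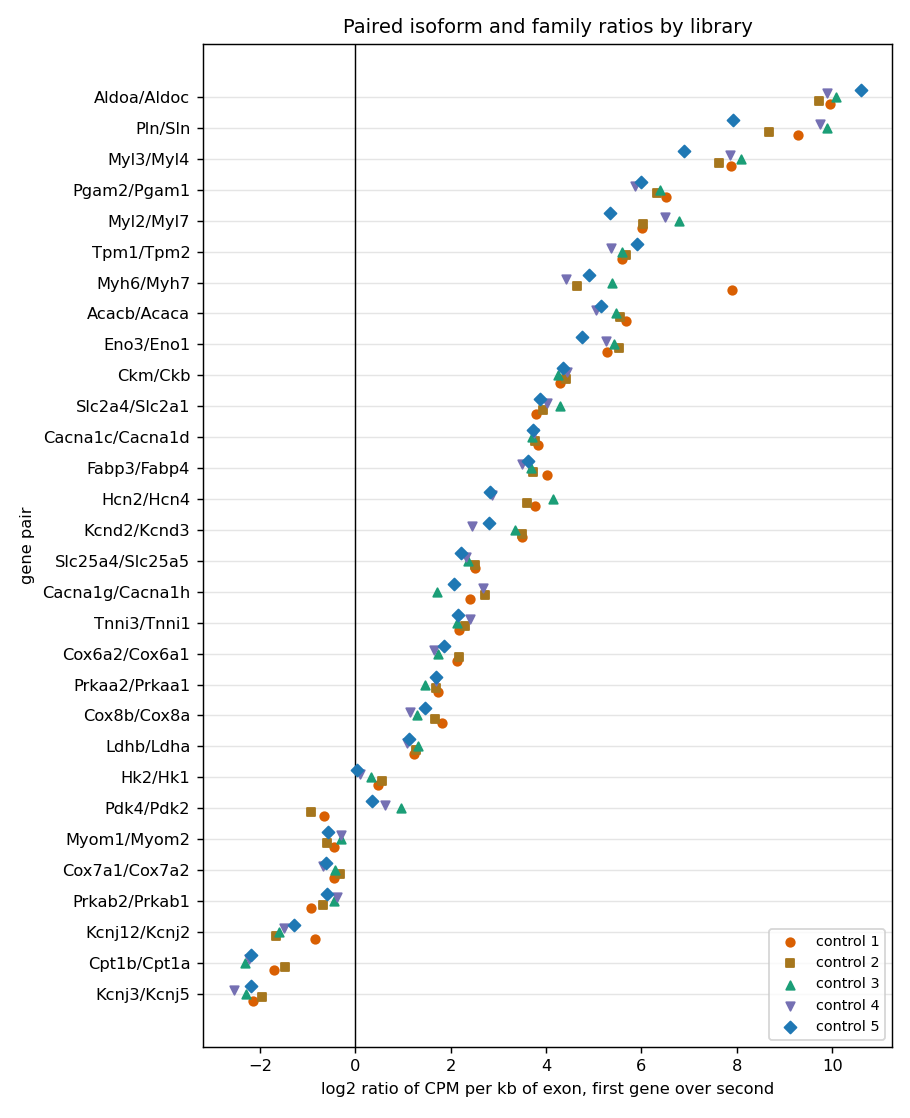
Log2 ratio of CPM per kb of exon for the 30 gene pairs, first gene over second, with 1 symbol for each of the 5 control libraries and a line at 0 (equal levels). Myh6/Myh7 is at 7.89 in control 1 and at 4.41 to 5.39 in the others, and Pdk4/Pdk2 lies below 0 in controls 1 and 2 and above 0 in controls 3 to 5.

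The tissue label was checked against lists of marker genes, each summed in CPM. The cardiomyocyte list of 9 genes came to 60414 ± 3465 CPM (SD, n = 5), or 6.04% of all counts, and no member was under 1 CPM in the mean. The ventricular light chain genes Myl2 and Myl3 far exceeded the atrial ones, as given above, so the defining markers of the labelled tissue were present. In bulk RNA fewer cells of a type and less RNA per cell cannot be told apart, and sums of lists of different genes are not cell shares. The fibroblast list of 10 genes was at 7879 ± 526 CPM, led by Col3a1, Postn, Col1a2 and Col1a1. The mural list was at 2577 ± 149 CPM, led by the pericyte gene Rgs5 at 892 CPM, Acta2, Abcc9 and Pdgfrb. The endothelial list, led by Cdh5 at 467 CPM, Kdr, Pecam1 and Tie1, came to 1892 ± 60.5 CPM, the steadiest of the large lists. Smaller sums came from the lymphatic list at 183 ± 11.3 CPM, where Prox1, which cardiomyocytes also express, held 121 CPM, Flt4, a growth factor receptor of lymphatic endothelium, 35.2 CPM, Lyve1 9.80 CPM and Pdpn 8.07 CPM, and from the endocardial list at 58.0 ± 4.93 CPM, with Nfatc1 at 26.2, Npr3 at 23.4 and Plvap at 8.49 CPM.

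**Figure D4:**
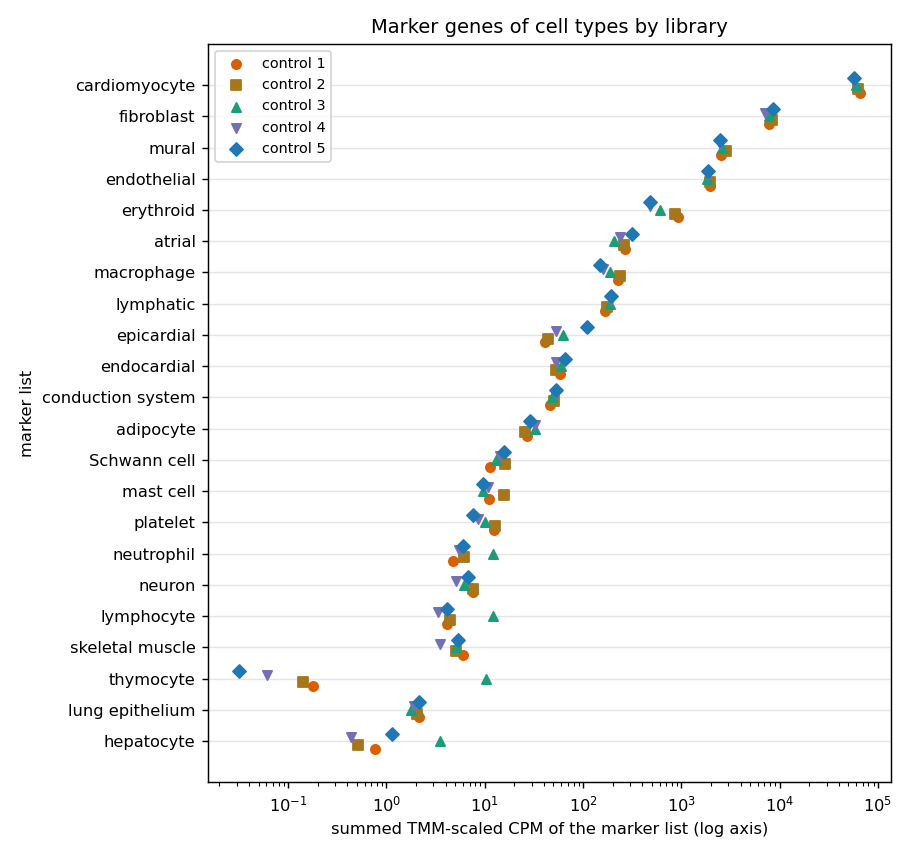
Summed TMM-scaled CPM of the marker genes of 22 cell types on a log axis, ordered by mean, with 1 symbol for each of the 5 control libraries. The cardiomyocyte sum is 57352 to 64938 CPM, the thymocyte sum is 10.2 CPM in control 3 and under 1 CPM elsewhere, and the epicardial sum is highest, at 109 CPM, in control 5.

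The summed macrophage and erythroid lists were higher in controls 1 and 2, although not every member was. The macrophage list came to 226, 237, 187, 160 and 148 CPM, with Lyz2, Mrc1, Csf1r and F13a1 leading. Its complement gene C1qb stood at 23.8, 25.4, 14.2, 10.5 and 11.6 CPM, and the set difference of its partner C1qa, 0.92 on the log2 scale, fell to 0.58 with the GC and length trends taken off. Fcgr1, an immunoglobulin receptor, had a wider range at 2.64, 4.99, 1.41, 1.23 and 1.34 CPM. Mrc1, Csf1r and F13a1 overlapped between the sets, and Cd163, a scavenger receptor of resident macrophages, was lower in controls 1 and 2, at 1.72, 1.40, 2.28, 3.11 and 2.48 CPM. The erythroid list came to 921, 860, 607, 482 and 478 CPM, led by the beta globin Hbb-bs at 498, 441, 358, 258 and 280 CPM. Of the 75-base stretches of Hbb-bs, 51.5% also occur in Hbb-bt, so its level is uncertain. The alpha globins Hba-a1 and Hba-a2 cannot be separated, because 84.6% of the 75-base stretches of Hba-a2 also occur elsewhere, and Hba-a2 was at 0.228 CPM in control 2 and at 25.1 to 106 CPM in the others. Platelet markers, led by Pf4, were at 7.67 to 12.6 CPM, mast cell markers, Cma1, Cpa3, Tpsb2 and Mcpt4, at 9.51 to 15.8 CPM with the highest sum in control 2, and neutrophil markers, led by S100a9 and S100a8, at 4.74 to 12 CPM with the highest in control 3.

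Control 3 and control 5 were highest for markers of other tissues, and how these came into the libraries was not tested. Control 3 read 6.11 CPM of Rag1, 2.14 CPM of Cd8b1, 1.44 CPM of Dntt and 0.543 CPM of Rag2, genes that only developing lymphocytes such as those of the thymus express together. The other libraries held at most 0.148 CPM of any of these, and Ptcra, a further thymocyte gene, had no count in any library. A gene with no count could still lie at up to 0.0814 to 0.0954 CPM, the level of 3 counts in these libraries, a limit that covers counting error only. The same library was highest for Cd4 and Cd8a, at 3.04 and 4.34 CPM against at most 0.986 and 0.296 CPM elsewhere, and held 1.85 CPM of Alb, the albumin of the liver, against at most 0.0592 CPM elsewhere. Control 5 was highest for genes of the outer surface of the heart. Upk3b was at 0.740, 0.256, 5.57, 2.37 and 22.6 CPM, Msln at 2.07, 0.570, 8.42, 4.10 and 22.5 CPM and Lrrn4 at 0.207, 0.142, 1.76, 1.30 and 11 CPM. These are genes of the mesothelial layer, whereas Wt1 and Tbx18, which epicardial cells and other cells of the heart wall express, were steady at 21.2 ± 2.04 and 21.1 ± 2.53 CPM. The sum of the 7 epicardial genes was 40.7, 43.7, 63.1, 52.9 and 109 CPM. The atrial list of 7 genes was also highest in control 5, at 269, 260, 206, 236 and 312 CPM. Among its members Sln was at 4.09, 7.01, 3.09, 3.33 and 10.6 CPM and Myl7 at 45.9, 47.8, 28.5, 33.4 and 64.8 CPM. Dkk3 was at 48.8, 41.8, 40.8, 42.3 and 55.5 CPM. Stard10 of the same list did not follow, at 7.88, 10.2, 6.14, 5.61 and 7.73 CPM, nor did Nppa, which the young ventricle also makes, at 119, 106, 99.5, 121 and 114 CPM, and Bmp10, which defines the right atrium, was near 0. The part of atrial or surface tissue in other values of control 5 was not tested.

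Further lists were low. Conduction system genes came to 50.2 ± 3.07 CPM, of which Gja5, Tbx3, Cntn2 and Hcn4 made up the most, and Schwann cell genes to 14.0 ± 1.97 CPM. Among neuronal genes Dbh stood at 5.39 CPM, Tubb3 and Prph were under 1 CPM, and Th and Chat had no count. Skeletal muscle genes summed to 5.04 ± 0.948 CPM with Tnni2, Tnnt3, Mylpf and Myh8 leading and Myod1 and Myf6 at 0, and adipocyte genes to 29.2 ± 3.17 CPM, of which Cidea, also expressed outside fat, held 28.9 CPM, while Lep had no count. Lung genes were at 1.99 CPM, nearly all from Ager, and liver genes at 0.432 to 3.53 CPM.

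Of lists that describe a state, the cell cycle list of 12 genes came to 627, 539, 672, 745 and 613 CPM, led by Mki67 at 150 ± 21.6 CPM (SD, n = 5), Top2a at 130 ± 13.5 CPM, Ccna2 at 85.3 ± 11.5 CPM and Cdk1 at 49.6 ± 4.65 CPM. Transcripts of dividing cells were thus present on day 7 in every library, and the bulk counts do not show in which cell type. The natriuretic peptide list came to 635 ± 28.0 CPM, led by Nppb at 145 CPM, Corin, which cleaves the precursor peptide, at 121 CPM, Nppa at 112 CPM and Furin at 97.1 CPM. Immediate early genes, which respond to stimuli within minutes, summed to 633, 589, 505, 420 and 502 CPM with Klf6, Jun, Btg2 and Dusp1 leading. Nr4a1, named after its values were seen, was at 73.7, 71.5, 22, 13.2 and 18.3 CPM, a difference of 2.02 on the log2 scale between the sets and of 1.81 with the GC and length trends taken off, whereas Fos and Egr1 overlapped. The circadian list came to 633 ± 44.1 CPM, led by Tef, Nr1d2, Per3 and Clock. The glucocorticoid and stress list came to 485, 457, 824, 639 and 600 CPM, with Pdk4 its highest member and Tsc22d3, Sgk1 and Cdkn1a next, of which Tsc22d3 was at 101 to 114 CPM.

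The spread between the 5 libraries was small for most genes. The median SD of log2 CPM over the 14126 genes was 0.144, with 0.0654 at the tenth percentile and 0.307 at the ninetieth, and it fell from 0.213 for genes at 1 to 10 CPM to 0.103 for those at 100 to 1000 CPM. The common biological coefficient of variation (BCV), the spread beyond counting error, was 15.7%. It was 10.3% with the library set as a term. That set was drawn from these same counts by the level of Rps3a3, so the fall is no test of the split. An SD above 1 was found for 74 genes, 0.524% of those kept. The steadiest genes above 1000 CPM, chosen by their values, were Sparc, a matrix protein of fibroblasts and endothelium, at 2163, 2195, 2165, 2169 and 2216 CPM, and Hadha, a subunit of the mitochondrial trifunctional protein, at 1432 to 1534 CPM.

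Most of the 20 named genes with the largest SD among those kept by the low-count filter belonged to the interferon response. Of these 20, 15 had their highest level in control 2 and encode, with the exception of Fmn1, a formin, proteins of that response or of antigen presentation. The guanylate-binding proteins and immunity-related GTPases, which attack the vacuoles of intracellular microbes, made up 8 of them. Iigp1 was at 88.6, 796, 19.7, 14.8 and 11.9 CPM. Igtp was at 27.7, 451, 10.7, 9.74 and 9.51 CPM, Irgm2 at 51.7, 442, 15.7, 14.9 and 13.3 CPM and Irgm1 at 48.4, 232, 20.7, 17.6 and 16.5 CPM. Gbp4 was at 36.2, 261, 14.7, 7.93 and 7.38 CPM and Gbp2 at 24.7, 168, 11.05, 9.34 and 11.96 CPM. Control 2 was the highest and control 1 the next for each, and controls 3 to 5 were the lowest. The same order held for Nlrc5, an activator of MHC class I genes, at 10.8, 83.6, 1.49, 0.463 and 0.318 CPM, and for Tap1, a peptide transporter of that pathway, at 32.6, 114, 10.04, 7.52 and 8.24 CPM. The chemokine Cxcl9, which interferon gamma induces, was at 3.29, 38.2, 1.52, 1.11 and 0.859 CPM. The interferon list of 11 genes summed to 237, 710, 101, 87.7 and 84.0 CPM, with Oasl2, Xaf1 and Bst2 among its highest members. It shares at least Ifit1 with the 15 genes, so its sum is not a separate result. Without control 2 the common BCV of all genes was 12.9%, against 15.7% with it. Control 2 was also the library with the highest mast cell sum, while its lymphocyte sum was 4.42 CPM against 3.33 to 4.17 CPM in controls 1, 4 and 5, and its macrophage sum was 237 CPM against 226 CPM in control 1.

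**Figure D5:**
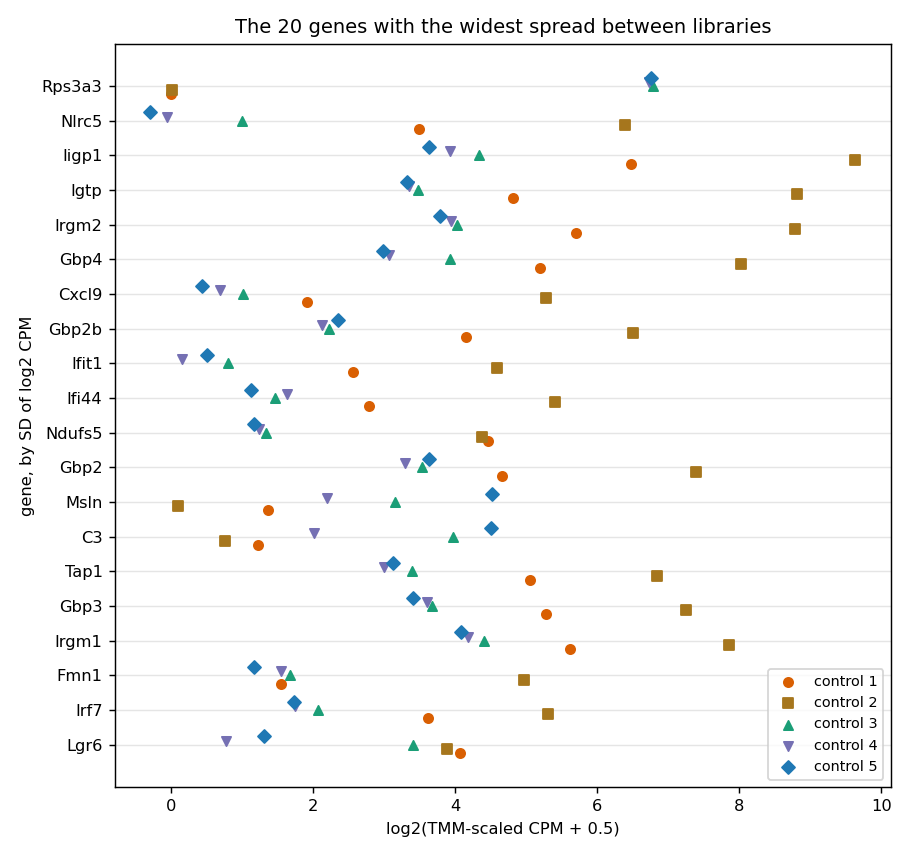
The 20 genes with the largest SD of log2 CPM among named genes kept by the low-count filter with a mean of at least 5 CPM, with log2(TMM-scaled CPM + 0.5) on the horizontal axis and 1 symbol for each of the 5 control libraries. Interferon-response genes such as Iigp1 and Igtp are highest in control 2 and next highest in control 1, while Rps3a3 is high in controls 3 to 5 and Msln and C3 in control 5.

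Promoter sequence is shown for these genes because they moved together. The window was 250 bases before to 50 bases after the start of each gene, from RefSeq on GRCm38.p6, the build of the counts, and it was searched on both strands for GAAANNGAAA, the core of the interferon-stimulated response element, and for TTCNNNGAA, the core of the gamma-activated site. The first motif was found in 7 of the 12 genes with a promoter among those 15 (58.3%), in 5 of 8 of the interferon list (62.5%), in 1 of 82 of the 100 most abundant nuclear genes (1.22%) and in 1079 of 27025 genes overall (3.99%). Ifit1 is counted in both the 7 and the 5. Several of the 7 are related neighbours, as Gbp2, Gbp2b and Gbp3 or Igtp and Irgm2, so their matches are not independent. The second was found in 2 of the 12 (16.7%) and in 9.55% of all genes. Each stretch below is 90 bases in the direction of transcription, with GAAANNGAAA or its reverse complement in capitals. Gbp2 is at chr3:142620564-142620653 on the plus strand, Ifit1 at chr19:34640745-34640834 on the plus strand, Irgm1 at chr11:48871401-48871490 on the minus strand, Igtp at chr11:58199482-58199571 and Irgm2 at chr11:58214873-58214962, both on the plus strand.
Gbp2: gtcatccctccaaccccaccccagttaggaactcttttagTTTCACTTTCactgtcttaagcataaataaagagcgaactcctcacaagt
Ifit1: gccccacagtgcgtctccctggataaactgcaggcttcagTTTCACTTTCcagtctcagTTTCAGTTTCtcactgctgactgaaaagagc
Irgm1: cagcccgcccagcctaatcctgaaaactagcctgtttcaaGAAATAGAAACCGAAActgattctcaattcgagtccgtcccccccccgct
Igtp: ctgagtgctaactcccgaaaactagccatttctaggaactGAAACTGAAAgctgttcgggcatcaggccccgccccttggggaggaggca
Irgm2: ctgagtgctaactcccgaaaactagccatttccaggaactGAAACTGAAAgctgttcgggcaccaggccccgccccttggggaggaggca
A match is a description of these letters and not a measured binding site.

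The other genes of wide spread followed other libraries. Rps3a3, annotated as a processed pseudogene with exons much like those of Rps3a1, which encodes a protein of the small ribosomal subunit, had the largest SD of the 20, 3.70 on the log2 scale, and was at 0.503, 0.513, 110, 106 and 108 CPM. Rps3a1 was at 249, 254, 71.5, 72.3 and 74.4 CPM. Since 45.4% of the 75-base stretches of Rps3a3 and 60.2% of those of Rps3a1 also occur in other transcripts, the counts of both are uncertain, and their sum was 250, 254, 182, 178 and 182 CPM. Ndufs5, a complex I subunit with 15.7% of its stretches shared, was at 21.6, 20.3, 2.04, 1.85 and 1.75 CPM. Both genes split the libraries into the same sets as the principal component, with no overlap and 3 similar values in the second set, and their differences of -6.75 and 3.17 on the log2 scale became -6.74 and 3.15 with the GC and length trends taken off. The library set used for the BCV above was drawn by the level of Rps3a3, so the split of that gene adds no separate result there. C3, a complement protein, was at 1.84, 1.20, 15.2, 3.55 and 22.2 CPM, the same order of libraries as Msln. Lgr6, a receptor for R-spondins, was at 16.3, 14.3, 10.1, 1.20 and 1.97 CPM and thus low in controls 4 and 5 alone.

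The filter asks for counts in every library and so left out genes that were near 0 in some. Of named genes with a mean of at least 5 CPM it left out 11, and each had an SD of at least 1.54, that of the last of the 20. Of these 11, Xist had an SD of 5.62 and the 4 Y-linked genes Eif2s3y, Ddx3y, Uty and Kdm5d had 3.23 to 4.34, with no count of the latter in controls 2 and 3. Hba-a2 and Upk3b, given above, had 2.87 and 1.95. Rps13-ps1, named as a ribosomal protein pseudogene, was read in controls 3 and 5, at 22.5 and 18.8 CPM, and at no more than 0.0308 CPM in the others. Tgtp2, an interferon-induced GTPase, was at 3.26, 29.0, 0.516, 0.308 and 0.286 CPM, the same order of controls 2 and 1 as above. Zfp990 was lowest in control 2, at 0.0285 CPM against 4.23 to 11.8 CPM, and Gt(ROSA)26Sor in control 5, at 0.127 CPM against 5.92 to 7.55 CPM. In a ranking without the filter 10 of the 20 genes stayed among the 20, and 10 of those 20 were highest in control 2.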

How the data were processed

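RNA-seq counts of mouse ventricles at postnatal day 7 were analysed. Per the methods, total RNA was extracted with TRIzol and libraries were made with a stranded poly(A) kit and sequenced as single 75-base reads. The deposited table holds raw counts of reads per Ensembl gene, which the authors made with STAR 2.4.2a on mm10 and HTSeq 0.6.1 according to the submitters' processing notes. The annotation release, strand setting and overlap mode are not given in the sources used here, and by HTSeq's default reads that match several places are not counted, which lowers genes with identical copies. All 5 control columns were used, although the methods name 4 controls and the labels 5, and 0 columns of unknown samples were present.

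Of 38293 listed genes, 36429 were matched to GENCODE M21, and the 1864 others held 0.18% of counts. From the counts, CPM (edgeR 4.0.16, TMM over the 5 libraries, R 4.3.3) and CPM per kb of the union of a gene's exons were computed, and 14126 genes passed filterByExpr with a minimum count of 10. SDs are of log2(CPM + 0.5), the BCV is edgeR's common dispersion without groups. DESeq2 1.42.0 gave alternative size factors and dispersions, with numpy 2.4.6, pandas 2.3.3 and scipy 1.17.1 for the rest. With 1 group no difference between conditions was tested, exact sign changes over 5 libraries could not reach 0.05, and single libraries were set against the others by Dixon's test at the 95% level. On simulated counts for these 5 libraries with 14126 genes, a BCV of 10% was estimated as 9.93%, and 193 of 200 genes given a wider spread were among the 200 with the largest SD. Shared sequence is the share of 75-base stretches of a gene's transcripts found in transcripts of another gene, so copies outside annotated transcripts were not seen.

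Named were the 20 genes with the highest mean CPM, family members with at least 1% of the family, the genes of each pair, up to 4 markers per list with the highest level and each marker at 0, and the 20 genes with the widest spread at a mean of at least 5 CPM, taken among genes kept by the filter, with those it left out given beside them. Outside this rule, Arid1a was named as the floxed gene and Chkb as the gene upstream of Cpt1b, and Nr4a1, Fos, Egr1, Sparc, Hadha, C1qa, C1qb, Fcgr1, Cd163, Lrrn4, Stard10 and Bmp10 were named after their values were seen. The members and lists were chosen with earlier results of these data known. Of 560 list symbols, 557 were matched. Some genes that the rule names are not reported here.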

Additional observations from a re-analysis of the deposited data

Results flagged for a closer look

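In 161 groups of 5 values (shares, ratios and sums per library) and for 389 named genes, the highest or lowest library was set against the others by Dixon's test at the 95% level, by which chance alone marks about 1 in 20 groups. It marked 17 of the former and 47 of the latter. The named genes include those picked for the widest spread and others named after their values were seen. The lists, too, were chosen with earlier results of these data known. Marks on such genes and lists repeat that choice, so these counts are no test against chance. Control 2 stood alone with 710 CPM for the interferon response list, where the next library was at 237 CPM, and with 83.6 CPM of Nlrc5, 796 of Iigp1, 451 of Igtp, 442 of Irgm2, 232 of Irgm1, 261 of Gbp4, 168 of Gbp2, 114 of Tap1, 38.2 of Cxcl9 and 29.0 of Tgtp2. It was also apart for the mural list at 2832 CPM, the mast cell list at 15.8 CPM and the Actc1 share of actins at 89.1%. The mural sum rested on Acta2, at 873 CPM there against 522 to 625 CPM elsewhere, whereas Rgs5 was highest in control 3. The mast cell sum was thus highest in the same library as the interferon genes, and its part in that result was not tested.

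Control 3 stood alone with 10.2 CPM for the thymocyte list, 12.2 CPM for the lymphocyte list, 12 CPM for the neutrophil list and 3.53 CPM for the hepatocyte list. Its single genes were Chkb at 87.6 CPM, Rag1 at 6.11 CPM, Cd8b1 at 2.14, Dntt at 1.44, Rag2 at 0.543, Cd4 at 3.04, Cd8a at 4.34 and Alb at 1.85 CPM. The part of thymic tissue in other values of this library was not tested. The same library had the lowest Ppara share of PPARs, 43.0%, and the lowest Prkaa2 share of AMPK alpha subunits, 73.3% or a log2 ratio over Prkaa1 of 1.45.

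Control 1 was apart in the log2 ratio of Myh6 to Myh7, 7.89 against at most 5.39, and in the Chrm2 share of autonomic receptors, 34.4%. Control 5 was apart for Upk3b, at 22.6 CPM against at most 5.57 CPM, for Lrrn4, at 11.04 CPM, for Gt(ROSA)26Sor, lowest at 0.127 CPM, for the Eno3 share of enolases, 96.4%, and for the Mb share, 99.1%. Control 4 needed the fewest genes for 99% of its counts, 10373. The Pkm share of pyruvate kinases, 99.9943%, was lowest in control 3 as well.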

How the results depend on the processing

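Of 164 values recomputed, 30 of 30 kept their direction in controls 3 to 5 alone. That they also stayed within the spread was fixed in advance, since a mean over these libraries cannot move past the SD over all 5. With the plain library total and with DESeq2 size factors, 32 of 32 kept their direction and stayed within the spread. With the length of the longest coding transcript 62 values moved, 2 turned and 40 stayed. Fabp3/Fabp4 moved furthest among the pairs, from a log2 ratio of 3.71 to 1.39, and Eno3/Eno1 went from 5.25 to 3.998. Others that moved were Tnni3/Tnni1 at 1.77, Myl2/Myl7 at 7.26, Myl3/Myl4 at 6.50, Slc2a4/Slc2a1 at 4.34, Cpt1b/Cpt1a at -2.59, Cox6a2/Cox6a1 at 1.61, Cox7a1/Cox7a2 at -0.87, Ldhb/Ldha at 0.61 and Ckm/Ckb at 3.46, and those that turned were Hk2/Hk1, to -0.58, and Pdk4/Pdk2, to -0.41. Which isoforms were expressed is not known from gene counts, so every ratio of 2 genes per kb rests on the choice of length. The leading member changed with that length in 8 of 74 families, to Hk1 from Hk2, Pdk2 from Pdk4, Lpl from Cd36, Ppard from Ppara, Csrp3 from Ankrd1, Vim from Des, Myh9 from Myh10 and Tmod1 from Lmod2. With lengths counted only over 75-base stretches found at no other locus, 7 values moved and 23 stayed. Cox8b/Cox8a was then 1.81, Ldhb/Ldha 1.45, Fabp3/Fabp4 4.29, Pgam2/Pgam1 5.73, Eno3/Eno1 4.83, Acacb/Acaca 4.96 and Slc25a4/Slc25a5 2.11. In controls 1 and 2 alone, Cpt1b/Cpt1a was -1.59, Cox6a2/Cox6a1 2.16 and Pdk4/Pdk2 -0.79. Pdk4/Pdk2, at 0.07 with all libraries, ran from -0.15 (without control 3) to 0.32 (without control 2), with -0.07 without control 4. No other value turned when 1 library was left out, and for a mean over libraries a move past the spread could not occur there. Without the mitochondrially encoded genes the 10 highest genes held 9.31% of counts, 860.4 genes made up 50% and 13356 reached 1 CPM. The common BCV was 10.3% with the library set, drawn from these same counts, as a term. It was 12.9% to 16.6% with 1 library left out, lowest without control 2. Taking the GC and length trends off, chosen after seeing the data, lowered the median SD of log2 CPM from 0.143 to 0.114 over 14015 genes. No paired analysis was possible because the 5 libraries form a single group. Depth limits genes under about 1 CPM, where 1 count is 0.0271 to 0.0318 CPM.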
